A study of Rattus norvegicus with 12 samples.

Results

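The 7 cyclin-dependent kinase inhibitor genes Cdkn1a, Cdkn1b, Cdkn1c, Cdkn2a, Cdkn2b, Cdkn2c and Cdkn2d were followed in fetal rat pituitaries with and without exposure to TCDD. They were taken by gene name from the probe annotation of the arrays, where they hold 10 probes, and they are 7 of the 26311 genes or unnamed transcripts on the array. Of the 7, 6 passed the filter on dim probes and are among the 19381 genes tested. The family was chosen by its name but also on measured values: it was taken up after Cdkn2b had stood out for its female difference in earlier work on these same arrays. The female, pooled and sex-difference values of Cdkn2b, and its difference between control males and control females, are therefore given as a description, with a standard error and without a test, and none of them counts as support for the choice.

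These proteins hold back the cell cycle by binding cyclin-dependent kinases. The CIP/KIP group (Cdkn1a, Cdkn1b and Cdkn1c, whose proteins are p21, p27 and p57) acts on several cyclin-kinase complexes, while the INK4 group (Cdkn2a, Cdkn2b, Cdkn2c and Cdkn2d, encoding p16, p15, p18 and p19) binds Cdk4 and Cdk6 and keeps them from cyclin D, which leaves the retinoblastoma protein active as a brake on E2F. In the developing pituitary, p57 and p27 are known for the exit of progenitors from the cycle and for keeping differentiated cells out of it, and loss of p27 or p18 in mice gives pituitary tumours.

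The study used 12 one-colour arrays of pituitary RNA from fetal Wistar rats at gestational day 18. Each sex has 3 control arrays and 3 from fetuses exposed to TCDD, the dioxin tetrachlorodibenzo-p-dioxin and a strong ligand of the aryl hydrocarbon receptor. The dose, day and vehicle are not given in the sources used here, nor is the number of glands behind an array or the litter of each fetus. The p-values thus measure the spread between these samples, which may in part be technical or shared by litter.

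Levels below are log2 intensities relative to the 75th percentile of the same array, so a step of 1 is a doubling. A level describes a probe across arrays, and levels of different genes are not set against each other. Of the 42877 spots on an array apart from controls, 75.1% to 78.4% were well above background and 0 were saturated. The aryl hydrocarbon receptor target Cyp1a1 was not well above background on any control array, at levels of -7.97 to -7.08, and lay at -2.58 to -1.19 on the exposed arrays. Ahrr, which encodes the repressor of that receptor, lay at -6.26 to -4.98 on control arrays and -0.22 to 0.68 on exposed ones, so exposure and label go together on all 12 arrays. Anterior pituitary markers were present on every array (mean of 10 kept markers of 11, 0.06 to 1.78). Markers of sensory ganglion neurons set 6 arrays apart. The mean of 14 kept markers of 15 was 0.17 to 1.61 on male control 2, male TCDD 1, male TCDD 2, female control 2, female TCDD 1 and female TCDD 3, and -4.11 to -3.35 on the other 6. Exposed arrays make up 4 of those 6. Where a member moves with this signal, values with and without these arrays are given.

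2 sequences show what was measured for the INK4 genes with the closest look below. The second Cdkn2b probe is a separate reading of Cdkn2b, and the Cdkn2c probe reads the gene whose male groups did not overlap. Both are array probes of 60 bases, written 5′ to 3′ and without capitals since no part is singled out.
Cdkn2b probe A_44_P313507: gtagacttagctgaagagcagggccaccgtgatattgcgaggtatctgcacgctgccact
Cdkn2c probe A_43_P13144: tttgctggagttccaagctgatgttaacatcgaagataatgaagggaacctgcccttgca
The Cdkn2b probe maps to chr5:108941425-108941484 on the minus strand of the rn4 build, at position 447 of the transcript, 999 bases from the start of the first Cdkn2b probe, A_42_P528537, at chr5:108940426-108940485. The Cdkn2c probe maps to chr5:131013102-131013161, on the same strand, at position 795 of its transcript.

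The stretch of 199 bases before the annotated starts of Cdkn2b is shown because Cdkn2b had the largest female difference of the family and the agent is a ligand of the aryl hydrocarbon receptor. It is RefSeq sequence of the GRCr8 build, chr5:109134907-109135105, minus strand, and the capitals mark GCGTG, the core of the element that the activated receptor binds.
Cdkn2b upstream: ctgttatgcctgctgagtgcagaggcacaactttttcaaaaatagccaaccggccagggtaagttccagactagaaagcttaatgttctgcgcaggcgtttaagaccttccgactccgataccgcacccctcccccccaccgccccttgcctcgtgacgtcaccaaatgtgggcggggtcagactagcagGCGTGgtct
RefSeq promoter windows of 300 bases matched 6 of the 7 genes, all but Cdkn1c. GCGTG, searched on both strands, occurred in 2 of the 6, at -89 from the start in Cdkn2a and at -60 in Cdkn2b, and in 29.7% of all 33469 windows. The GC box GGGCGG occurred in 5 of the 6 and in 33.1% of all windows, with 3 matches in Cdkn2b and 5 in Cdkn2d. The Smad box GTCTG occurred in 4 of the 6 and in 50.1% of windows. In Cdkn2b, 1 of its 3 matches starts next to GCGTG, and the motifs do not overlap. The E-box CACGTG occurred in 0 of the 6 and in 6.42% of windows. These are matches of letters and not measured binding sites.

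Across the family, none of the 5 tested members other than Cdkn2b passed an adjusted p of 0.05 (limma with Benjamini-Hochberg adjustment over all genes) in either sex or over both, and Cdkn2b was not among the called genes either. The background is as sparse. Of all 19381 genes, 0.0103% were called in males (2 genes), 0.0103% in females (2 genes) and 0.0206% over both sexes (4 genes). At an unadjusted p under 0.05 there were 1811 genes for males, 519 for females and 1252 for the sexes together, among them 1 of the 5 members in the male comparison, Cdkn2d, and 0 in the others. The median difference of the 6 members between exposed and control fetuses was 0.11 in males against -0.01 over all genes, and 0.06 in females against -0.04. In males 4 members lay above 0 and 2 below. In females 5 lay above 0 and only Cdkn2b below. Over all genes, 51.4% lay below 0 in males and 59.2% in females. In bulk tissue, fewer cells of a type and less RNA per cell cannot be told apart.

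**Figure D1:**
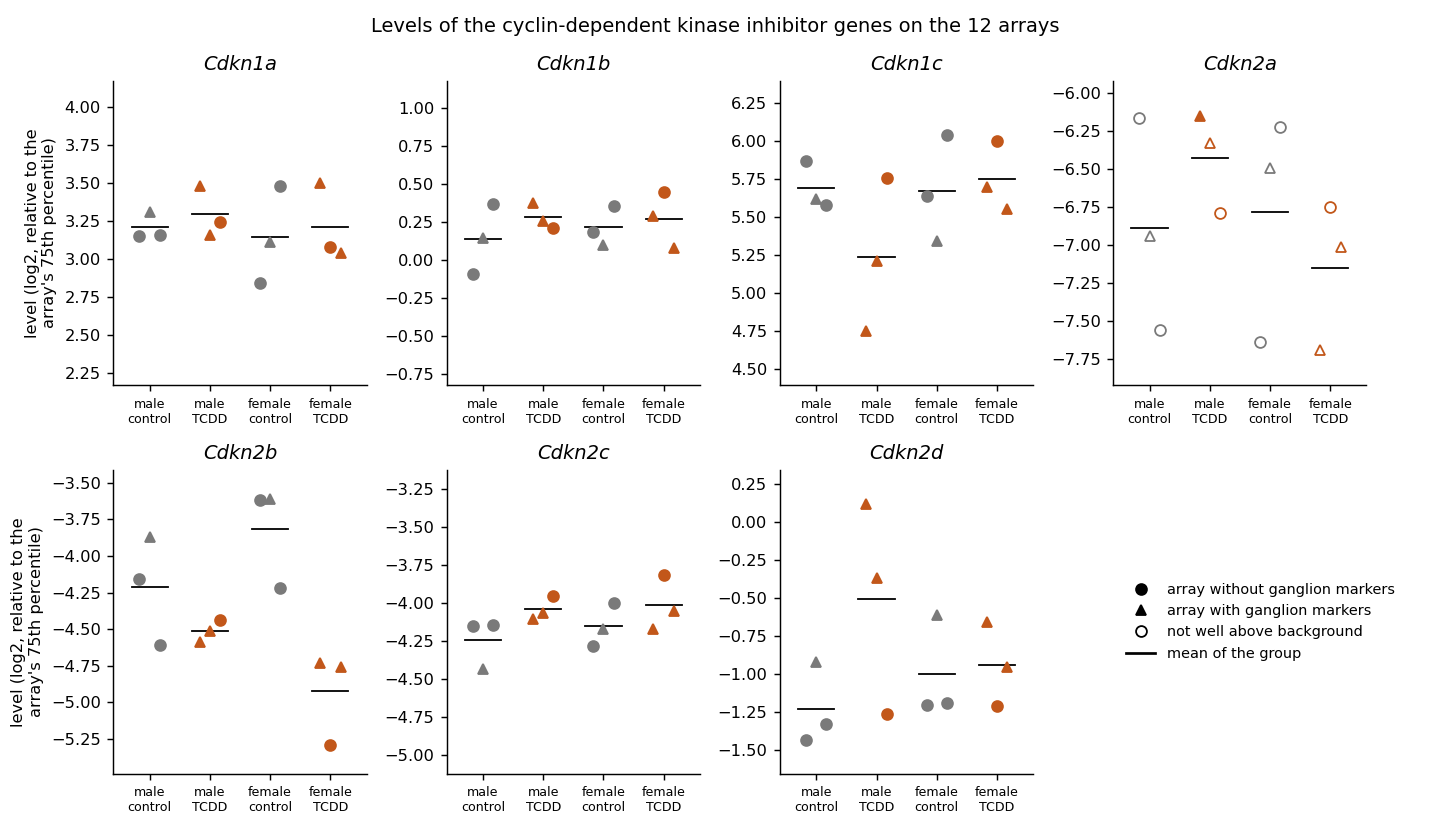
Level of each inhibitor gene (y axis, log2, relative to the 75th percentile; each panel has its own range) on the 12 arrays, by group (x axis), with a line at the group mean, triangles for the 6 arrays with sensory ganglion markers and open symbols for arrays where the probe was not well above background. In Cdkn2b the 3 exposed females, at -5.29 to -4.73, lie below the 3 control females, at -4.22 to -3.61, and in Cdkn2d the triangles lie above the circles.

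Among the CIP/KIP genes, Cdkn1a, the p53 target that arrests cells after damage, was level across the groups on its brighter probe. That probe (A_64_P123895, rn4 chr20:7385536-7385595, plus strand) read 3.15, 3.31 and 3.16 in control males and 3.48, 3.16 and 3.24 in exposed males. In females it read 2.84, 3.11 and 3.48 in controls and 3.50, 3.08 and 3.04 after exposure. The groups overlap in both sexes. The difference was 0.08 (SE 0.17, 95% interval -0.29 to 0.46, limma adjusted p = 0.815) in males and 0.07 (SE 0.17, -0.31 to 0.44, limma adjusted p = 1) in females, which leaves room for a change of about 0.4 either way. A second probe 1060 bases further along (A_44_P914438) was noisier, with a within-group SD of 0.51 against 0.23. It differed by 0.66 (SE 0.37) in males and 0.24 (SE 0.37) in females. Its median was -1.36 on the 6 arrays with ganglion markers and -1.84 on the 6 without, and the ranges overlap. The probes moved together only in part, with a Pearson correlation of 0.54 over the 12 arrays. With the anterior pituitary markers the brighter probe had a correlation of -0.72 over the 6 arrays with ganglion markers and -0.67 over the 6 without. The part of these tissues in the Cdkn1a values was not tested.

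Cdkn1b, whose product p27 restrains Cdk2 and keeps hormone-producing cells quiescent, was read from 10 spots per array that differed by an SD of 0.05 to 0.08 within an array. Its probe lies at rn4 chr4:171846350-171846409. Control males read -0.09, 0.15 and 0.37, and exposed males 0.38, 0.26 and 0.21. Control females read 0.19, 0.10 and 0.36, and exposed females 0.29, 0.45 and 0.08. The exposed males lie inside or just above the range of the control males, and the female groups overlap throughout. The difference was 0.14 (SE 0.13, 95% interval -0.16 to 0.44, limma adjusted p = 0.62) in males and 0.06 (SE 0.13, -0.24 to 0.35, limma adjusted p = 1) in females. Arrays of a group differed by an SD of 0.17, which holds labelling and hybridisation differences as well as those between glands.

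Cdkn1c, an imprinted gene whose product p57 marks progenitors leaving the cycle, was lowest on a pair of exposed male arrays. The probe used (A_64_P165085, rn4 chr1:203835291-203835350, minus strand) read 5.87, 5.62 and 5.58 in control males and 4.75, 5.21 and 5.76 in exposed males. Control females read 5.64, 5.34 and 6.04, and exposed females 5.70, 6.00 and 5.55. The low arrays are male TCDD 1 and male TCDD 2, and female control 2, at 5.34, comes next. The arrays other than that pair spread from 5.34 to 6.04, and male TCDD 3 lies within the control range. The difference was -0.45 (SE 0.25, 95% interval -1.0 to 0.10, limma adjusted p = 0.511) in males and 0.07 (SE 0.25, -0.48 to 0.62, limma adjusted p = 1) in females. The difference between the sexes in this effect was 0.52 (SE 0.35, limma adjusted p = 0.883). A second probe 773 bases away gave -0.57 (SE 0.26) in males and 0.14 (SE 0.26) in females. Its correlation with the first was 0.96 over the 12 arrays, 0.99 over the 6 with ganglion markers and 0.67 over the 6 without.

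Both low Cdkn1c arrays carry the sensory ganglion markers. Over the 6 arrays with those markers Cdkn1c ranged from 4.75 to 5.70 with a median of 5.45, and over the 6 without from 5.58 to 6.04 with a median of 5.82. Without the 6 arrays the male difference was 0.04 (SE 0.23), from 1 exposed and 2 control males, and with the marker mean as a covariate it was -0.24 (SE 0.16). It was -0.20 without male TCDD 1 alone and -0.71 without male TCDD 3. Within slide 1, which holds the 3 control males and male TCDD 1 as the only exposed array, it was -0.94 (SE 0.14), with the spread taken from the controls and 276 of the 19381 genes called. With the slide as a block it was also -0.94 (SE 0.25). Cdkn1c also moved with the endothelial markers (mean of 4, -1.37 to -0.51 over the arrays), with a correlation of 0.97 over the 6 arrays with ganglion markers and 0.12 over the 6 without, and with the blood markers (2 kept of 4), at 0.79 and 0.89. The part of these cell types in the Cdkn1c values was not tested.

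Among the INK4 genes, Cdkn2b was lower in every exposed female than in any control female. Cdkn2b encodes p15, which TGF-beta signalling induces to stop cells before DNA synthesis. The probe used (A_42_P528537, 10 spots per array) read -4.16, -3.87 and -4.61 in control males and -4.59, -4.51 and -4.44 in exposed males. It read -3.62, -3.61 and -4.22 in control females and -4.73, -5.29 and -4.76 in exposed females. As intensities these were 79.1, 93.2 and 49.9 in control females against 41.5, 24.3 and 46.5 in exposed females, and all 12 were well above background. The male groups overlap, with male control 3 below all 3 exposed males.

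In females the Cdkn2b difference was -1.11 (SE 0.24), a level 2.16-fold lower after exposure, and over both sexes it was -0.70 (SE 0.17), or 1.63-fold lower. In males, where the contrast did not bear on the choice, it was -0.30 (SE 0.24, 95% interval -0.83 to 0.24, limma adjusted p = 0.569). The effect in females minus that in males was -0.81 (SE 0.34). Ordered by mean, the groups were control females (-3.82 ± 0.35, SD, n = 3), control males (-4.22 ± 0.37), exposed males (-4.51 ± 0.07) and exposed females (-4.93 ± 0.32). Control females and control males overlap, as do control and exposed males. The exposed males were on slides 1 and 2 and the exposed females on slide 3. Sex and slide thus cannot be told apart among the exposed arrays. The spots within an array differed by an SD of 0.05 to 0.17, less than the 0.30 between arrays of a group.

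**Figure D2:**
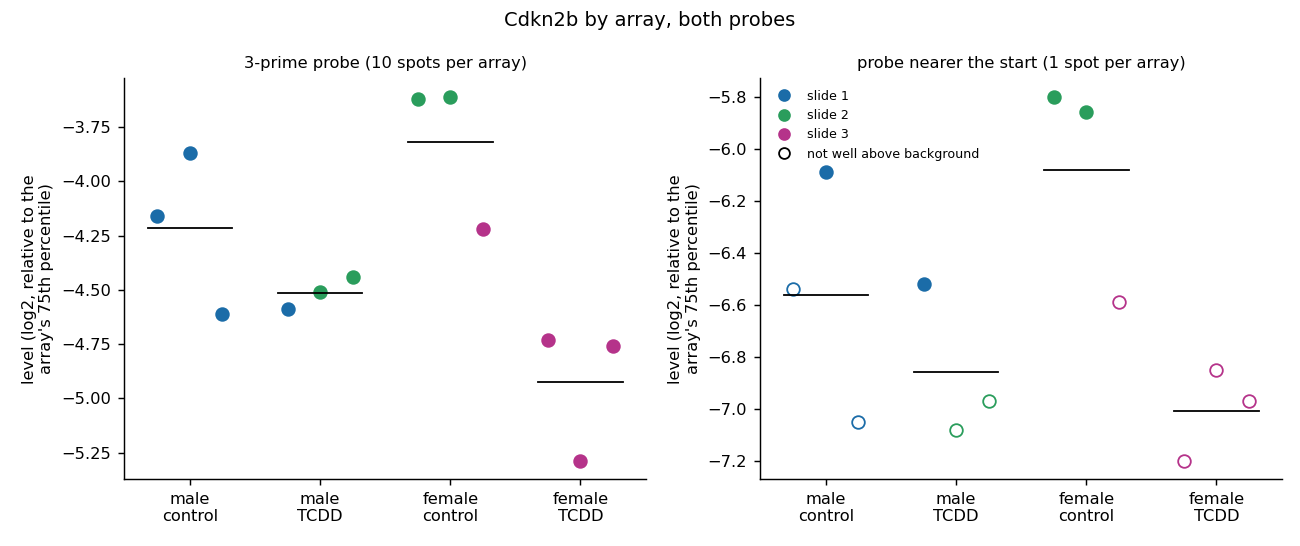
Cdkn2b level (y axis, log2, relative to the 75th percentile) on each array by group (x axis), for the probe used (left) and the second probe (right); colours give the slide, open symbols arrays where the probe was not well above background, lines the group means. On the left the exposed females lie below the control females, as they do on the right, where none of them was well above background. The highest control females, at -3.62 and -3.61 on the left, are both on slide 2, while the exposed females are all on slide 3.

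The second Cdkn2b probe was close to background, well above it on 2 of 3 control females, 1 of 3 control males, 1 of 3 exposed males and 0 of 3 exposed females. It read -5.80, -5.86 and -6.59 in control females and -7.20, -6.85 and -6.97 in exposed females, and those groups do not overlap. Female groups did not overlap in 6.96% of all genes, and the choice of the family used the female contrast. In males the second probe read -6.54, -6.09 and -7.05 in controls and -6.52, -7.08 and -6.97 after exposure, which do overlap. The fitted difference was -0.92 (SE 0.33) in females and -0.30 (SE 0.33) in males, but 8 of the 12 readings were not well above background. No fold or order of the 4 groups is drawn from this probe. The probes had a correlation of 0.83 over the 12 arrays.

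The size of the female Cdkn2b difference also depended on whether the slide was taken into account, and slide and group are in part confounded. Control females 1 and 2 were scanned on slide 2, and female control 3, the lowest of the 3, on slide 3 with all exposed females. Within slide 3 the female difference was -0.71 (SE 0.36), from that 1 control, and with the slide as a block it was -0.71 (SE 0.32) in females, -0.37 (SE 0.32) in males and -0.54 (SE 0.23) over both sexes. Exposed males 2 and 3, on slide 2 with the high control females, read -4.51 and -4.44. The female difference was -1.31 without female control 3 and -0.93 without female TCDD 2, which had the lowest value. With normexp background correction, which pulls dim probes together, it was -0.52 (SE 0.12). Without the 6 arrays with ganglion markers it was -1.37 (SE 0.38), from 2 control females and 1 exposed female, female TCDD 2, the lowest array of all. With the marker mean as a covariate it was -1.20 (SE 0.21). Over the 12 arrays the correlation of Cdkn2b with the marker lists ran from -0.51 (cartilage) to 0.56 (skeletal muscle). It was 0.52 with anterior pituitary and 0.48 with stratified epithelium, and the means of these lists are given. The mean of the stratified epithelium markers (4 of 4 kept) was -3.30, -3.05 and -3.0 in control females and -3.87, -3.64 and -4.10 in exposed females. In males it was -3.82 to -3.50 in controls and -3.81 to -3.19 after exposure. Its genes did not move together. Over both sexes Krt5 differed by -0.6 and Dapl1 by -0.9, but Krt14 by 0.02 and Krt15 by 0.22. The mean of the anterior pituitary markers was 1.78, 1.13 and 0.76 in control females and 0.55, 0.76 and 0.94 in exposed females, and its correlation with Cdkn2b was 0.62 over the 6 arrays with ganglion markers and 0.69 over the 6 without. The part of the slide and of these cell types in the Cdkn2b values was not tested.

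Cdkn2a, the neighbour of Cdkn2b that encodes p16 and ARF and is silent in most fetal tissues, was not measurable. Its probe (A_64_P071770, rn4 chr5:108910777-108910836) was well above background on 1 array, male TCDD 1, with intensities of 4.89 to 15.9 over the 12 arrays. It did not pass the filter, and no difference is given. Along the chromosome the Cdkn2a probe lies 29.6 kb from that of Cdkn2b. The nearest named gene beyond it with a kept probe, Mtap, which encodes an enzyme of methionine salvage, lies 138.8 kb away. Mtap differed by -0.27 in males and -0.02 in females (-0.14, SE 0.09, over both sexes). An unnamed transcript at 75.3 kb (A_64_P000277) differed by 0.24 in males and -0.36 in females. The female Cdkn2b difference of -1.11 led to the choice of the family, so its size is not set against that of these neighbours.

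Cdkn2c, whose product p18 restrains Cdk4 and Cdk6 and limits pituitary growth in mice, was slightly higher in each exposed male than in any control male. It read -4.15, -4.43 and -4.14 in control males and -4.10, -4.06 and -3.95 in exposed males. Control females read -4.28, -4.17 and -4.0, and exposed females -4.17, -3.81 and -4.05. The female groups overlap, and the gap between the male groups is narrow, from -4.14 to -4.10. The difference was 0.20 (SE 0.15, 95% interval -0.12 to 0.53, limma adjusted p = 0.539) in males and 0.14 (SE 0.15, -0.19 to 0.46, limma adjusted p = 1) in females. Over both sexes it was 0.17 (SE 0.10, limma adjusted p = 0.67). Within slide 1 the male difference was 0.14 (SE 0.22).

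Counts of groups that do not overlap read the same way. In males 1 of the 6 members, Cdkn2c, had groups that did not overlap, against 14.4% of all genes. In females it was 1 of 6, Cdkn2b, against 6.96%, and there the choice of the family used that contrast. Over both sexes, 0 of the 6 had groups that did not overlap within either sex in the same direction, against 0.677%.

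**Figure D3:**
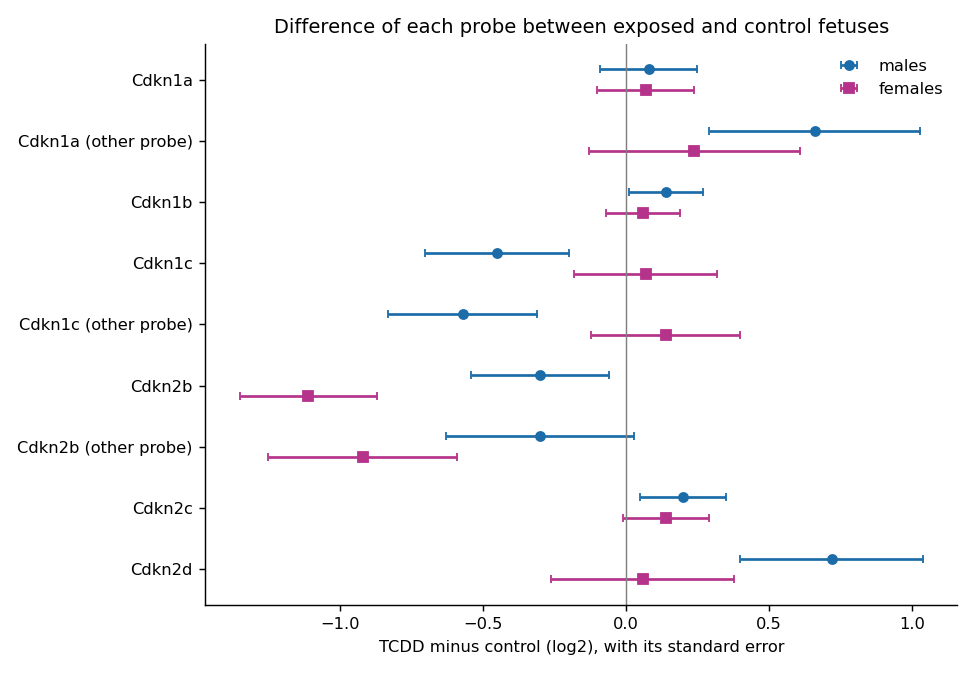
Exposed minus control level (x axis, log2, with the standard error from limma) for each kept probe of the inhibitor genes (y axis), in males (circles) and females (squares). The female Cdkn2b differences, -1.11 and, from the probe close to background, -0.92, lie farthest below 0, and the male Cdkn2d difference, 0.72, farthest above it.

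Cdkn2d, the INK4 gene whose product p19 persists in postmitotic neurons, had the highest positive difference of the members in males and one near 0 in females. Control males read -1.43, -0.92 and -1.33, and exposed males 0.12, -0.37 and -1.26. Control females read -1.20, -0.61 and -1.19, and exposed females -0.66, -1.21 and -0.95. Male TCDD 1 and male TCDD 2 stand above all other arrays, while male TCDD 3 lies within the control range, so the groups overlap in both sexes. The difference was 0.72 (SE 0.32, 95% interval 0.02 to 1.43, 1.65-fold, limma adjusted p = 0.506) in males and 0.06 (SE 0.32, -0.65 to 0.77, limma adjusted p = 1) in females. The effect in females minus that in males was -0.66 (SE 0.45, limma adjusted p = 0.883).

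**Figure D4:**
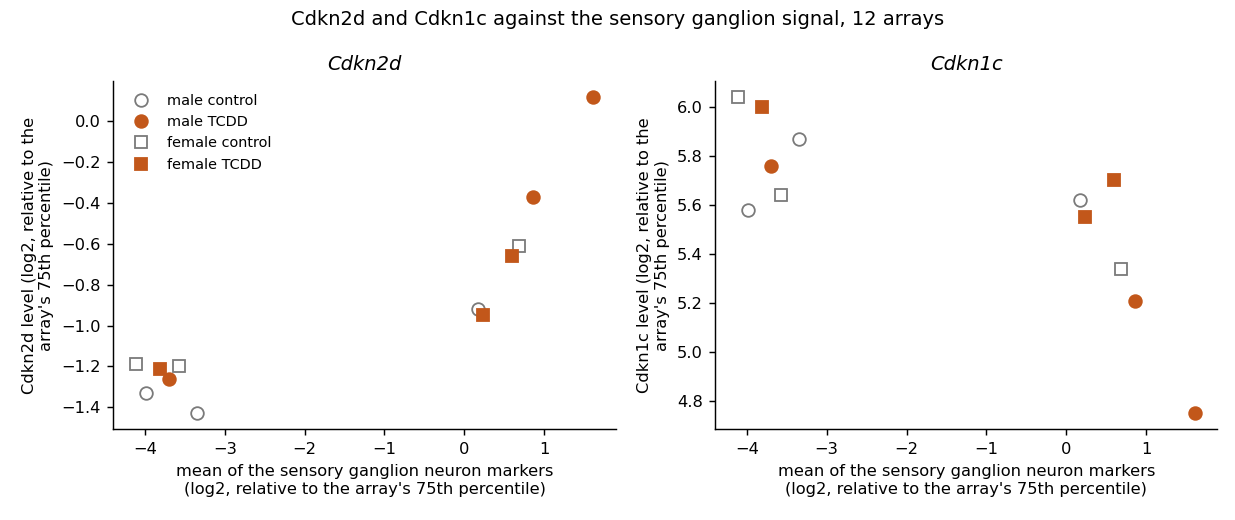
Level of Cdkn2d (left) and Cdkn1c (right) on each of the 12 arrays (y axis) against the mean of the 14 sensory ganglion neuron markers (x axis), both log2, relative to the 75th percentile; circles are males, squares females, filled symbols exposed and open symbols control. The arrays form 2 clusters on the x axis, and Cdkn2d lies at -0.95 to 0.12 in the right cluster and -1.43 to -1.19 in the left.

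The level of Cdkn2d was higher on the arrays with ganglion markers. It was -0.95 to 0.12 (median -0.64) on the 6 arrays that carry them and -1.43 to -1.19 (median -1.23) on the 6 that do not, with no overlap. The share of all genes that separate these arrays in the same way was not counted. Among the arrays that carry the markers, its correlation with their mean was 0.99, and among those that do not, -0.52. Without these 6 arrays the male difference was 0.12 (SE 0.14), and with the marker mean as a covariate 0.42 (SE 0.16). It was 0.41 without male TCDD 1 alone and 1.1 without male TCDD 3. Within slide 1 it was 1.35 (SE 0.24), from male TCDD 1 as the only exposed array, which has the highest ganglion marker mean of all, and 276 of the 19381 genes were called there. With the slide as a block it was also 1.35 (SE 0.38). Markers of peripheral glia, which accompany ganglia (6 of 6 kept, mean -3.39 to -1.92 on control and -3.13 to -0.82 on exposed arrays), had a correlation with Cdkn2d of 0.89 among the arrays with ganglion markers and -0.90 among those without. The part of ganglion tissue in the Cdkn2d values was not tested. In each of the other 5 kept members the values with and without the markers overlap.

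The members did not move as one over the 12 arrays. Cdkn1c and Cdkn2d ran opposite to each other (correlation -0.87), as did Cdkn2b and Cdkn2c (-0.71), while Cdkn2b was unrelated to Cdkn1c (-0.09) and Cdkn2d (-0.05). These correlations describe 12 arrays that share slides, groups and the ganglion signal. Between control males and control females the 6 members differed by -0.40 (Cdkn2b, SE 0.24) to 0.07 (Cdkn1a), with a limma adjusted p of 1 for each of the 5 others. All control males were on slide 1 and the control females on slides 2 and 3, so sex and slide cannot be told apart among the controls. With the slide as a block in the fit of all 4 groups, Cdkn1c differed by 0.93 (SE 0.33, 0.02 without the block). Cdkn2d differed by -1.26 (SE 0.51, -0.23 without it), and the limma adjusted p with the block was 0.417 for each. In that fit 10 of the 19381 genes were called. No slide holds controls of both sexes, so these block values rest on the exposed arrays that share slides with controls. Without the block, 0.0103% of genes were called and 10.6% had groups that do not overlap. For the difference of the exposure effect between the sexes, 0% of genes were called over all 19381, with 867 at an unadjusted p under 0.05, and 0 of the 5 other members were.

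Some genes tracked single members closely over the 12 arrays, ranked among 12091 named genes that were above background on all of them. Those most like Cdkn2d were Selenow (0.986), Vopp1 (0.985) and Ptpn3 (0.983). Over the 6 arrays without ganglion markers alone, their correlations with Cdkn2d were 0.73, 0.43 and 0.77. Most like Cdkn1c were the innate immune receptor gene Tlr4 (0.973), Myof (0.967) and the gap junction gene Gja1 (0.962). Over the 6 arrays without ganglion markers these were 0.99, 0.83 and 0.73. For Cdkn2b the closest were Lad1 (0.854), Ly6h (0.848) and Iffo2 (0.836). Lad1, which encodes a protein of epithelial anchoring filaments, differed by -0.43 over both sexes. For Cdkn1a they were Psd (0.959), Pax5 (0.955) and Spata2 (0.95). For Cdkn1b they were Inka1 (0.926), the lactate transporter gene Slc16a1 (0.914) and Tnn (0.858). For Cdkn2c they were Bves (0.889), the small heat shock protein gene Hspb1 (0.886) and the integrin-linked kinase gene Ilk (0.837).

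The genes around the inhibitors were read from lists of the pathway, of which 0 genes were called in any of the 3 exposure comparisons outside the targets of the aryl hydrocarbon receptor. Of those 4 targets 3 were higher over both sexes, Ahrr by 5.92 (SE 0.25, limma adjusted p = 5.12e-06), the quinone reductase gene Nqo1 by 1.28 (SE 0.12, limma adjusted p = 0.00408) and Cyp1a1 (limma adjusted p = 1.07e-05). Cyp1a1 passed the filter through the exposed arrays alone, so its size is a bound. Set against the lowest signal that was well above background on each control array, it was at least 25.5-fold higher. The fourth, Cyp1b1, differed by 0.82 (SE 0.13, limma adjusted p = 0.116). The Cdkn2b difference over both sexes, -0.70, holds the female contrast that led to the choice of the family. Its size is therefore not set against that of these targets.

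All 12 cyclins and kinases, the direct partners of the inhibitors, lay below 0 over both sexes, with a median of -0.12 against -0.02 over all genes, of which 55.8% lay below 0. By sex, 11 of the 12 lay below 0 in males, with a median of -0.28, and 8 of the 12 in females, with a median of -0.02. The share of all genes below 0 was 51.4% in males and 59.2% in females. The ones with the smallest p were the D-type cyclins that the INK4 proteins keep from Cdk4 and Cdk6, Ccnd2 at -0.39 (SE 0.12) and Ccnd1 at -0.34 (SE 0.12), with a limma adjusted p of 0.67 each. Ccnd2 read 1.37 ± 0.14 (SD, n = 3) in control and 0.76 ± 0.39 in exposed males, and 1.13 ± 0.19 in control and 0.96 ± 0.07 in exposed females. Of the retinoblastoma and E2F genes 10 of 13 were kept, 1 above 0 and 9 below, with a median of -0.12, E2f1 at -0.17 (SE 0.10) and E2f5 at -0.16 (SE 0.09). Proliferation genes, the readout of the cycle itself, lay 1 above and 12 below, with a median of -0.14, and the replication helicase genes Mcm5 and Mcm3 differed by -0.20 and -0.19 (SE 0.12 each). These medians moved with the choice of arrays and with the slide. Without the 6 arrays that carry it the list medians were 0 for the cyclins and kinases, 0.01 for the retinoblastoma and E2F genes and 0.01 for the proliferation genes. With the slide as a block they were -0.29, -0.25 and -0.25. The part of the ganglion tissue or the slide in these medians was not tested.

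**Figure D5:**
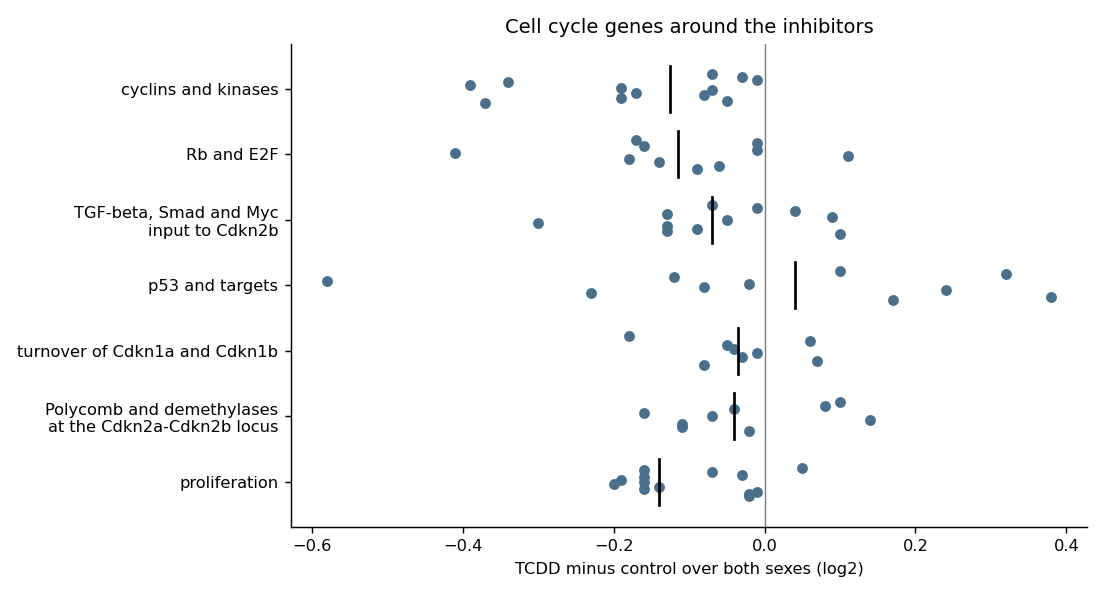
Exposed minus control level over both sexes (x axis, log2) of the genes in 7 lists around the inhibitors (y axis); each point is a gene and each black line the median of its list. The cyclins and kinases all lie below 0, with a median of -0.12, and no gene shown was called.

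Upstream of Cdkn2b, 11 of 12 genes of TGF-beta, Smad and Myc input were kept, 3 above 0 and 8 below over both sexes, with a median of -0.07. By sex, 3 lay above 0 and 8 below in males (median -0.08), and 8 above and 3 below in females (median 0.06). Of all genes, 51.4% lay below 0 in males and 59.2% in females. Both list medians are near 0, and the difference between the sexes was not tested. Smad4, the shared partner of the receptor-driven Smads, differed by -0.13 (SE 0.08) and Zbtb17, which encodes the factor through which Myc represses Cdkn2b, by 0.10 (SE 0.06). Myc itself differed by -0.01 (SE 0.11). The p53 list, upstream and alongside Cdkn1a, split evenly with 5 above 0 and 5 below and a median of 0.04, with Bax at 0.10 (SE 0.06) and Phlda3 at 0.24 (SE 0.14). Of the ubiquitin ligase genes that turn over p21 and p27, 2 of 8 lay above 0 and 6 below, with Cks1b at -0.18 (SE 0.08) and Skp1 at 0.07 (SE 0.05). Of the Polycomb and demethylase genes known at the Cdkn2a and Cdkn2b locus, 9 of 10 were kept, 3 above 0 and 6 below, with Eed at -0.16 (SE 0.09) and Kdm2b at 0.14 (SE 0.09). The limma adjusted p was 0.984 for Myc and 0.67 for each of the other 8 genes named here. The medians of the TGF-beta and Smad, turnover and Polycomb lists changed sign without the ganglion arrays, to 0.07, 0.03 and 0.02.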

How the data were processed

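Arrays were read with Agilent Feature Extraction, version 10.7.1.1 per the file headers and 9.5.1.1 per the submitters' processing notes. The deposited values are spot intensities on a linear scale, background-subtracted and detrended within the array, with flags that the authors deposited beside them. A second table deposited by the authors also has linear intensity, with a median of 83.5 in each column and a normalization that is not stated. After outlier spots were removed, log2 intensity was set relative to the 75th percentile of its array and averaged over a probe's spots. Of 30367 probes, 22430 were kept (well above background on at least 3 of 12 arrays, with at least 10 values). The brightest kept probe stood for its gene (19381 genes). In R 4.3.3, limma 3.58.1 fitted the group means, its prior variance following the intensity, and p-values were adjusted over all genes by Benjamini-Hochberg. The pipeline was tested on simulated data. Probe names came from accessions (18006), symbols (2654) or the file (9707). Slide 1 holds the control males and male TCDD 1, slide 2 male TCDD 2 and 3 with female control 1 and 2, and slide 3 the rest. Named genes were all 7 members, the 2 genes with the smallest p in each list of the pathway or every called one, and the 3 genes most correlated with each member. Myc, Cyp1b1, Mtap, the unnamed transcript and the stratified epithelium markers were named after their values were seen. The members, lists and tests were chosen with earlier results of these data known. Alternatives covered the background correction, normalization, filters, probe choice, variance model, slide, replicates and ganglion markers. The number of arrays limits the precision.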

Additional observations from a re-analysis of the deposited data

How the results depend on the processing

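Under each alternative listed for the members, 0 of them passed the adjusted threshold in any comparison. Over 20 settings the female Cdkn2b difference ran from -1.37 to -0.52 and the male one from -0.49 to -0.05. Over 24 settings the one over both sexes ran from -0.82 to -0.34. The sign held throughout, but every setting refits the arrays on which Cdkn2b had stood out in females. The steady sign is thus no support for the female or pooled difference. Leaving out 1 array at a time gave a female Cdkn2b difference of -1.31 to -0.93. The male Cdkn2d difference ran from 0.12 to 1.35 and that of Cdkn1c from -0.94 to 0.04, with the ends set by the ganglion arrays and slide 1. With the slide as a block the female differences of Cdkn1a (-0.27), Cdkn1b (-0.09), Cdkn1c (-0.29) and Cdkn2c (-0.01) changed sign. Same-numbered arrays had correlations of -0.70 to 0.75 in their deviations from the group means. These deviations also carry the ganglion signal, so they cannot decide whether the replicate numbers pair the samples. With the replicate block the Cdkn2b difference stayed at -1.11 in females (SE 0.25) and -0.70 over both sexes (SE 0.18), and 0 members were called. Over all genes, the slide as a block gave 26 called genes in males and 15 over both sexes, against 2 and 4 without it, and the comparison within slide 1, with 1 exposed male, gave 276. For Cdkn2a and the second Cdkn2b probe, signal over background is the limit.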
